A study of Mus musculus with 11 samples.

Results

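Eicosanoids are short-lived lipid signals made from arachidonic acid, and 10 genes of their synthesis and reception were followed here across mouse hematopoietic stem cells (HSCs). The 10 genes are Alox5, Alox5ap, Ltc4s and Alox12 of the lipoxygenase branch, Ptgs1, Ptgs2, Tbxas1 and Hpgds of the cyclooxygenase branch, and the receptors Tbxa2r and Ptger4. They were taken by gene symbol from a table of 49585 genes, and all 10 have a row in it. A test across the table was run on the 13448 genes that passed a filter on low counts, among them 9 of the 10, Ptgs2 being the one below it.

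The HSCs came from bone marrow of C57BL/6 mice and were sorted as Lin- c-Kit+ Sca-1+ CD48- CD150+ cells, divided by the surface integrin CD41. Every sample pooled cells of 3 mice, and RNA of 1000 cells was used. Mice that received control rabbit serum gave 3 CD41- and 2 CD41+ samples, and mice taken 24 h after platelet depletion gave 3 CD41- and 3 CD41+ samples. The labels name no depleting agent, age, sex or mutant allele for any group.

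In the pathway, phospholipase A2 releases arachidonic acid from membranes. Cyclooxygenases (Ptgs1, the constitutive form, and Ptgs2, the inducible form) turn it into prostaglandin H2, from which Tbxas1 makes thromboxane A2, the platelet-activating signal read by Tbxa2r, and Hpgds makes prostaglandin D2. Lipoxygenases work on the same substrate: Alox5, helped by the membrane protein Alox5ap (FLAP), makes leukotriene A4, which Ltc4s joins to glutathione, while Alox12 is the platelet-type 12-lipoxygenase. Ptger4 encodes EP4, a receptor for prostaglandin E2, a lipid known for acting on HSCs, and platelets and megakaryocytes are well-known sources of thromboxane.

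The 2 members whose change passed the test were Ptgs1 and Tbxas1, and Ptgs2, the inducible paralog of Ptgs1, had no read in 7 of the 11 libraries. The RefSeq promoter windows of these 3 genes are shown, each of 250 bases before to 50 bases after the annotated start on GRCm38.p6, to let the sequence upstream of the genes that moved be set beside that of the rarely counted paralog. Capitals mark matches to the motifs searched on both strands. The windows are Ptgs1 at chr2:36230176-36230475, Ptgs2 at chr1:150099781-150100080 and Tbxas1 at chr6:38918736-38919035, all on the plus strand.
Ptgs1: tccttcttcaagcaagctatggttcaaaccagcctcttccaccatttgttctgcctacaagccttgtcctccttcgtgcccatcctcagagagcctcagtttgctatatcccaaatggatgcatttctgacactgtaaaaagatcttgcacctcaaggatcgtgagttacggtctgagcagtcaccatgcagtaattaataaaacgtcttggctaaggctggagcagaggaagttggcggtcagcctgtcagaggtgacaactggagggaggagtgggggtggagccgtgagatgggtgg
Ptgs2: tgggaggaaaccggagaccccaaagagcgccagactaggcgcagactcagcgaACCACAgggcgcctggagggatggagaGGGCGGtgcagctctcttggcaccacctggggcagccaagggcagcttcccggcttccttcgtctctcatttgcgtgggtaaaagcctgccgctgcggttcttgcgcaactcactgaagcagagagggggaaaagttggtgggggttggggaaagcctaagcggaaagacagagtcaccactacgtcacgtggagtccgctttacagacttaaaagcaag
Tbxas1: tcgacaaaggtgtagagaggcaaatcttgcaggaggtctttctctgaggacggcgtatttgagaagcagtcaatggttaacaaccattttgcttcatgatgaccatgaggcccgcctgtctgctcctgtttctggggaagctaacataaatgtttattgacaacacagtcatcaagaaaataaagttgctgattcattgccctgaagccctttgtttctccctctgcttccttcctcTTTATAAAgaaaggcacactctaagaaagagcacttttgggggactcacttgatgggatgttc

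The GATA search took AGATAA with A or T as its first and A or G as its last letter. The ETS search took CCGGAA and, as a further form, CAGGAA. The RUNX search took TGTGGT, the GC box search took GGGCGG and the TATA box search took TATAAA. Of 32851 mouse promoter windows of the same length, 29.8% held a GATA, 41.4% an ETS, 16.8% a RUNX, 35.7% a GC box and 13.6% a TATA box match. Ptgs1 held no match to any of these letters. Ptgs2 held 1 RUNX match, on the minus strand at position 54 of the window, and 1 GC box at position 81. Tbxas1 held TATAAA on both strands, at positions 238 and 240, and the matches overlap, just before the annotated start at position 251. That RefSeq start lies inside the GENCODE span of Tbxas1, which begins further upstream, so the window shows one of the starts of this gene. Windows were found for 9 of the 10 members, and Alox5ap was the member without one. A match is a description of the letters only.

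The libraries held 974196 to 9950423 counted reads (median 3878931), the shallowest being depleted CD41+ sample 1. Itga2b, which encodes CD41, was higher in CD41+ samples averaged over treatments (log2 difference 2.41, adjusted p = 2e-05), as was Slamf1, which encodes CD150 (0.75), while Ly6a (Sca-1) was lower (-1.47). The other genes of the sort, Kit and Cd48, did not pass the test. Transcripts of other cells were present in a population sorted against lineage markers: the summed level of 10 neutrophil genes ran from 7821 to 12901 CPM (counts per library total, brought to one scale) in control CD41-, 23331 to 77359 in control CD41+, 3826 to 34514 in depleted CD41- and 12979 to 51137 in depleted CD41+ samples. The mast cell and basophil list summed to between 3.77 and 555 CPM, with Cma1, Tpsb2 and Mcpt4 at 0 in every library. In bulk RNA, more cells of a type and more RNA per cell cannot be told apart.

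Levels below are CPM after TMM normalisation, which scales each library for composition, and genes are ranked by level only per kilobase of annotated exon. On that scale Alox5ap stood highest of the 10 in the mean over the 4 groups, at 280 CPM per kb, before Ptgs1 at 50.6 and Tbxas1 at 32.2. Tbxa2r (17.8), Alox5 (11.2), Ptger4 (6.97) and Ltc4s (3.95) followed. Alox12 (0.779), Hpgds (0.596) and Ptgs2 (0.152) were the lowest, all under 1 CPM per kb. In control CD41- cells Ptgs1 was at 38.3 ± 8.44 (SD, n = 3) and Tbxas1 at 40.0 ± 1.23 CPM per kb, a difference within the spread. Ptgs1 had the higher mean in control CD41+ (62.4 against 37.9) and depleted CD41- cells (44.4 against 27.4). In depleted CD41+ cells they were at 57.3 ± 9.58 and 23.4 ± 3.39 with no overlap. Exon length is that of all annotated isoforms merged, 9094 bases for Tbxas1 and 3884 for Ptgs1, so the level per kb of a gene with long rare isoforms is set low.

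**Figure D1:**
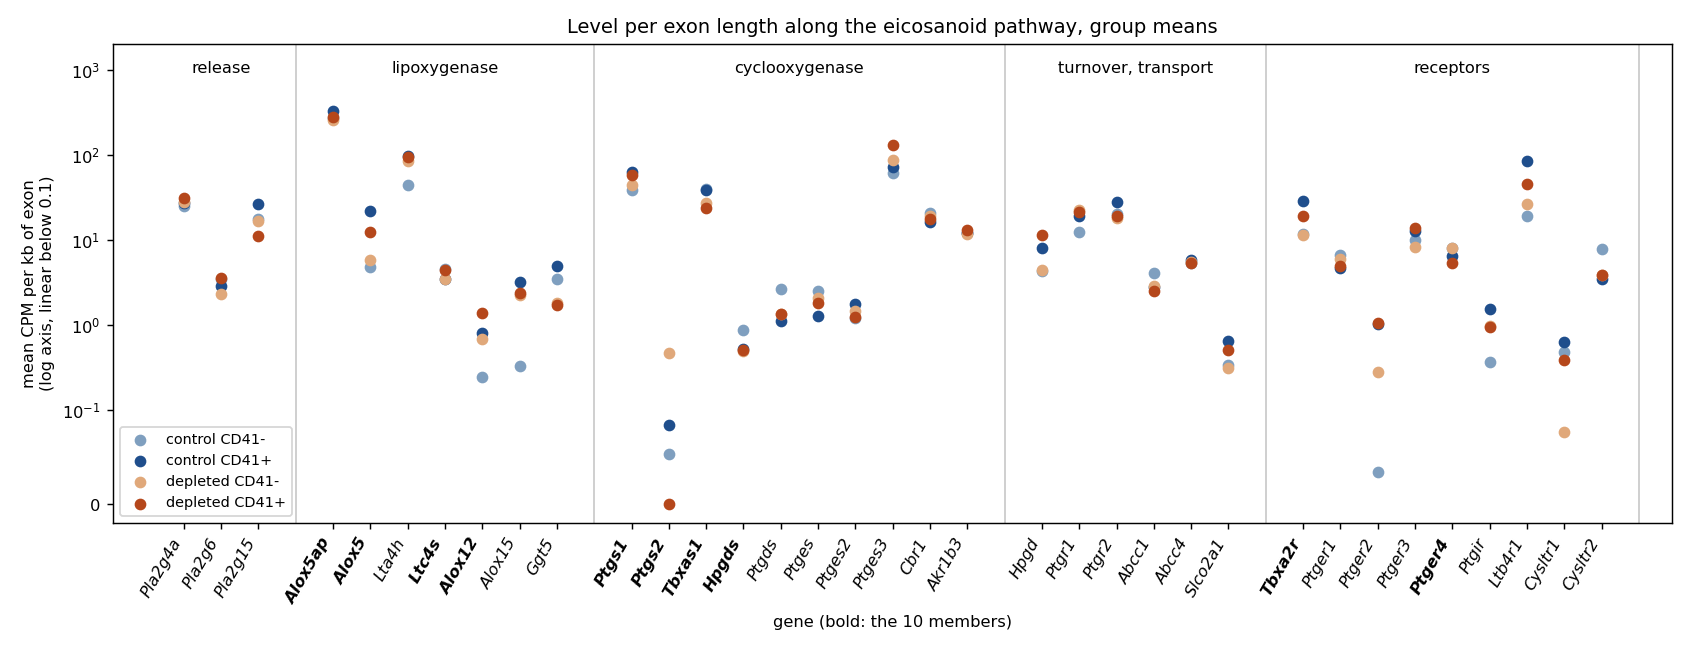
Group means of CPM per kb of exon (log axis, linear below 0.1) for the 10 members, in bold, and tested genes of the wider pathway, ordered by step, with 1 colour per group. Alox5ap, Ptges3 and Lta4h stand highest in the mean over groups, and Ptgs2 reaches 0 in depleted CD41+ cells.

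In the lipoxygenase branch, Alox5ap (ENSMUSG00000060063, chromosome 5, 149264767 to 149288153 on GRCm38, plus strand) was abundant in every sample. Its level was 359, 413 and 365 CPM in control CD41-, 363 and 551 in control CD41+, 412, 289 and 374 in depleted CD41-, and 477, 278 and 426 in depleted CD41+ samples. All 4 groups overlapped, the lowest sample being depleted CD41+ 2 and the highest control CD41+ 2. The difference between CD41+ and CD41- cells averaged over treatments was 0.20 ± 0.16 (log2, SE; 95% interval -0.15 to 0.55), and that between depleted and control mice averaged over fractions was -0.15 ± 0.16 (-0.50 to 0.19). Reads of Alox5ap may be shared with the antisense gene Gm19719, since 189 of their exon bases overlap and no source used here states how the counting treated strand.

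Alox5 (ENSMUSG00000025701, chromosome 6, 116410077 to 116461178 on GRCm38, minus strand), the 5-lipoxygenase itself, varied far more than its helper, by 40.9-fold between the lowest and the highest library against 1.98-fold for Alox5ap. It was at 17.9, 17.3 and 23.8 CPM in control CD41- and at 42.8 and 137 in control CD41+ samples, without overlap. In depleted mice it was at 42.8, 3.35 and 24.1 CPM in CD41- and at 61.2, 39.8 and 52.1 in CD41+ samples, where depleted CD41- 1 lies within the CD41+ range. Averaged over treatments the CD41+ to CD41- difference was 1.63 ± 0.51 (log2, 95% interval 0.50 to 2.76), with an adjusted p of 0.0933 in edgeR's quasi-likelihood test. It passed the threshold in DESeq2 (adjusted p = 0.0414), with a block of consecutive sample numbers (0.0361) and without the filter on low counts (3.31e-11, at a log2 difference of 1.62). It also passed without depleted CD41- 1 (0.0421) and without depleted CD41- 2 (0.0313). It did not pass in the remaining alternatives, where the adjusted p reached 0.107 with all libraries or without both basophil-rich ones. Over the 11 fits without 1 library each, the log2 difference ran from 1.10 to 2.04.

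The library highest in Alox5, control CD41+ 2 with 137 CPM, also had the highest neutrophil sum, 77359 CPM, and the library lowest in it, depleted CD41- 2 with 3.35 CPM, had the lowest sum, 3826 CPM. Over the 11 libraries, Pearson's r between the log2 levels of Alox5 and of this sum was 0.925 (Spearman's rho 0.973). For Alox5ap, r was 0.823 (rho 0.745). In a fit with the mean level of the neutrophil genes as a covariate, the Alox5 difference was 0.91 (adjusted p = 0.0866), and that of Alox5ap was -0.087. Of the 10 neutrophil genes none passed the test for CD41, where 5.38% of all tested genes did. An unadjusted p was under 0.05 for 3 of them, against 23.1% of all genes. The log2 difference was positive for all 10, with a median of 1.34 against -0.03 for all genes. The covariate was chosen after the data were seen, and the part of neutrophil cells or transcripts in the Alox5 difference was not tested.

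**Figure D2:**
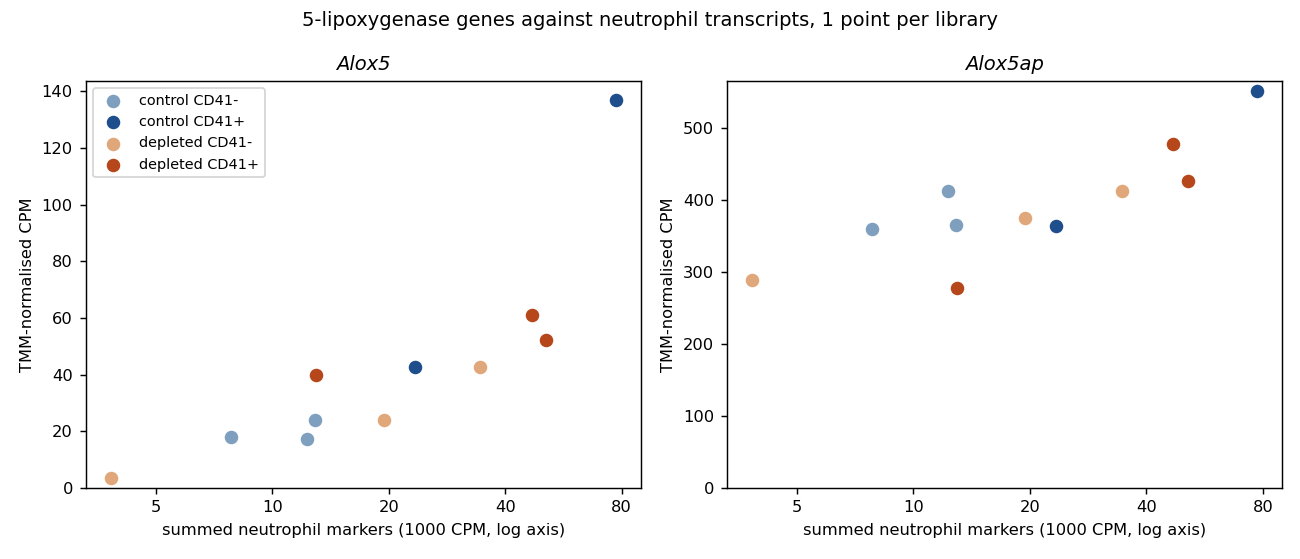
TMM-normalised CPM of Alox5 (left) and Alox5ap (right) against the summed level of 10 neutrophil genes (in units of 1000 CPM, log axis), 1 point per library and 1 colour per group. Alox5 runs from 3.35 to 137 CPM between the libraries with the lowest and the highest neutrophil sum, and Alox5ap is at 289 and 551 CPM in the same 2 libraries.

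Ltc4s (ENSMUSG00000020377, chromosome 11, 50236461 to 50238616 on GRCm38, minus strand) was low and even. It was at 5.23, 3.66 and 4.86 CPM in control CD41-, 3.47 and 3.61 in control CD41+, 2.85, 3.56 and 4.02 in depleted CD41-, and 3.34, 3.53 and 6.41 in depleted CD41+ samples, resting on 3 to 28 reads per library. Its difference between fractions was 0.01 ± 0.39 (log2, 95% interval -0.83 to 0.85) and that between treatments -0.03 ± 0.40 (-0.87 to 0.82), intervals wide enough to hold a change of over 1.5-fold either way. Its exons share 268 bases with the antisense gene Gm26542, which was at 3.31 to 3.68 CPM in the group means.

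Alox12 (ENSMUSG00000000320, chromosome 11, 70241457 to 70255353 on GRCm38, minus strand) was counted with 0 to 31 reads per library. It was at 2.20, 0.785 and 0 CPM in control CD41-, 2.67 and 3.87 in control CD41+, 2.24, 3.98 and 2.13 in depleted CD41-, and 2.22, 6.08 and 8.74 in depleted CD41+ samples. The library at 0, control CD41- 3, allows up to 0.730 CPM, the level of 3 reads. Control groups did not overlap between fractions, the nearest libraries holding 8 and 10 reads. Depleted ones overlapped through depleted CD41+ 1, whose 2 reads lie under the 3.34 CPM that 3 reads make there. Depth thus limits this comparison of treatments. The averaged difference was 1.41 ± 0.64 for CD41+ against CD41- (adjusted p = 0.205) and 1.17 ± 0.65 for depleted against control (adjusted p = 0.324), neither past the threshold.

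Of the cyclooxygenases, Ptgs1 (ENSMUSG00000047250, chromosome 2, 36230426 to 36252272 on GRCm38, plus strand) was the one counted in every library, at 50.6 CPM per kb in the mean over groups against 0.152 for Ptgs2. It was at 187, 132 and 128 CPM in control CD41- and 236 and 249 in control CD41+ samples, with no overlap. In depleted mice it was at 172, 184 and 162 CPM in CD41- and 241, 247 and 180 in CD41+ samples, where depleted CD41+ 3 falls inside the CD41- range. Averaged over treatments, Ptgs1 was higher in CD41+ cells by 0.53 ± 0.13 (log2, 95% interval 0.25 to 0.82), a 1.45-fold difference with an adjusted p of 0.0334. Neither treatment alone passed: control mice gave 0.70 ± 0.20 (adjusted p = 0.0746) and depleted mice gave 0.36 ± 0.18 (adjusted p = 0.571). Depletion itself gave 0.04 ± 0.13 (95% interval -0.24 to 0.33).

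The Ptgs1 call lies near the threshold. It was lost in 8 of the 11 fits that each left out 1 library, with adjusted p from 0.0178 to 0.11 over all of them and log2 differences from 0.48 to 0.63: those without control CD41+ 1 or 2, control CD41- 2 or 3, any of the 3 depleted CD41- libraries, or depleted CD41+ 2. It was also lost with library size alone in place of TMM (0.44, adjusted p = 0.0805), without control CD41- 3 and depleted CD41- 1 (0.48, adjusted p = 0.134), and with the neutrophil covariate (0.59, adjusted p = 0.0603). Exons of Ptgs1 share 148 bases with Gm43621 on the other strand, at 12.7 to 21.5 CPM in the group means. Genes listed as markers of other cell types also moved with CD41, where 2.73% of all tested genes were higher. In CD41+ cells 8 of 12 megakaryocyte and platelet genes and 4 of 7 tested endothelial and stromal genes were higher. Among the 8 is Itga2b, which encodes CD41, so its difference follows from the sort. The endothelial and stromal list summed to 20.6 to 23.1 CPM in control CD41-, 133 to 276 in control CD41+, 17.1 to 310 in depleted CD41- and 234 to 454 in depleted CD41+ samples. Of 9 tested macrophage genes 1, Mrc1, was higher, and the list of 10 summed to 68.3 to 122 CPM in control CD41-, 153 to 227 in control CD41+, 72.7 to 215 in depleted CD41- and 166 to 273 in depleted CD41+ samples. The list of 8 stem cell genes includes Slamf1, Kit and Ly6a of the sort. Of these 8, 4 were lower in CD41+ cells, Ly6a among them, and 1, Slamf1, was higher, where 5.38% of all tested genes passed. The part of any of these lists in the Ptgs1 difference was not tested.

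Ptgs2 (ENSMUSG00000032487, chromosome 1, 150100031 to 150108227 on GRCm38, plus strand) had no read in 7 of the 11 libraries. The count was 3 reads in each of control CD41- 3, control CD41+ 2 and depleted CD41- 1, and 26 in depleted CD41- 3, which is 6.15 CPM there. All 3 depleted CD41+ libraries were at 0, which allows up to 3.34, 0.588 and 0.874 CPM. With 35 reads in all, 26 of them in 1 library, no comparison was made for it.

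Tbxas1 (ENSMUSG00000029925, chromosome 6, 38875404 to 39084585 on GRCm38, plus strand), thromboxane A synthase, was the member that moved with depletion. It was at 353, 363 and 376 CPM in control CD41- and 359 and 331 in control CD41+ samples, but at 230, 296 and 221 in depleted CD41- and 209, 245 and 184 in depleted CD41+ samples. All 5 control libraries, at 331 to 376 CPM, lay above all 6 depleted ones, at 184 to 296. Averaged over fractions it fell by 0.62 ± 0.12 on the log2 scale (95% interval -0.88 to -0.37), 1.54-fold lower, with an adjusted p of 0.00824. The differences were -0.55 ± 0.16 in CD41- cells (adjusted p = 0.083) and -0.70 ± 0.18 in CD41+ cells (adjusted p = 0.161), and the difference between these was -0.15 ± 0.24 (-0.66 to 0.36).

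The call for Tbxas1 held in each of the 11 fits without 1 library, with adjusted p from 0.00731 to 0.0488. Among the alternatives run it was lost only without both control CD41- 3 and depleted CD41- 1, the libraries with most basophil transcripts (-0.58, adjusted p = 0.061). CD41+ and CD41- cells differed by -0.15 ± 0.12 (-0.41 to 0.10). Genes of megakaryocytes and platelets, which are known to express Tbxas1, moved the same way with depletion. Of the 12 listed, 6 were lower, Itga2b among them, and none higher, where 2.73% of all tested genes were lower. The list summed to 988 to 1499 CPM in control CD41-, 1425 to 2019 in control CD41+, 565 to 878 in depleted CD41- and 804 to 1142 in depleted CD41+ samples. Between fractions, 8 of the 12 were higher in CD41+ cells, again with Itga2b, the gene of the sort, among them. Tbxas1 did not pass the test between fractions. Of the 8 stem cell genes 1, Hlf, was lower after depletion and none higher. That list, with Slamf1, Kit and Ly6a of the sort in it, summed to 1427 to 1711 CPM in control CD41- and 834 to 1167 in depleted CD41- samples. In CD41+ cells it summed to 688 to 988 CPM in control and 295 to 828 in depleted samples. The sums lay apart in CD41- and overlapped in CD41+ cells. No macrophage gene passed for depletion, where 6.33% of all tested genes did, and 1 of the 9 tested had an unadjusted p under 0.05 (21.3%). The part of any of these cells or transcripts in the fall of Tbxas1 was not tested. Its exons share 144 bases with the antisense gene Gm42962, which had 35 reads in all.

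**Figure D3:**
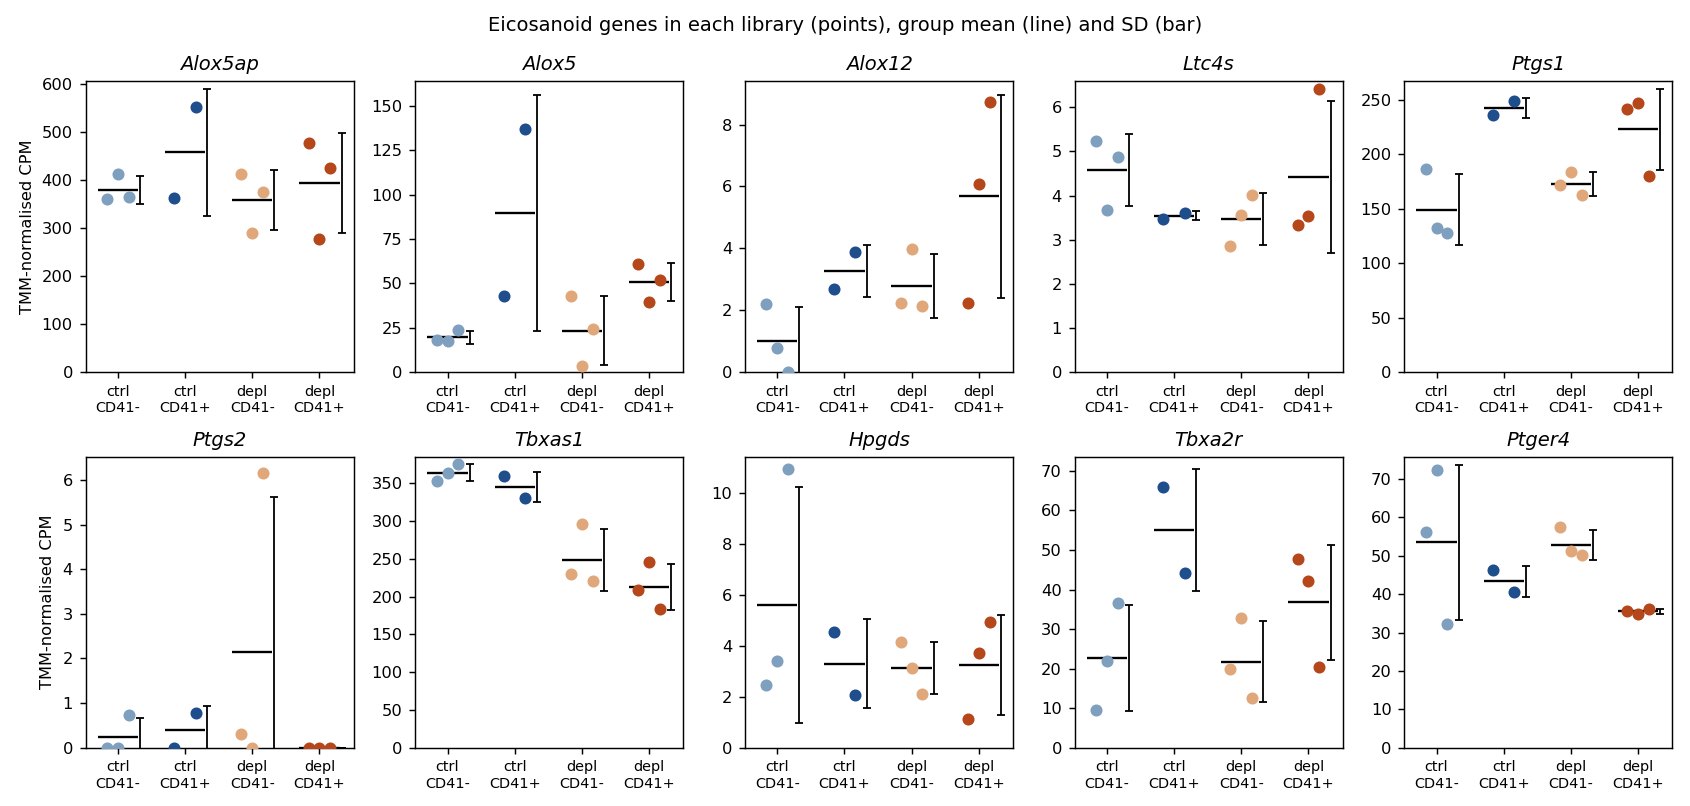
TMM-normalised CPM of the 10 members in each of the 11 libraries (points), with the group mean (line) and SD (bar, its lower end cut at 0) for control and depleted CD41- and CD41+ samples. Tbxas1 lies at 331 to 376 CPM in the control and 184 to 296 CPM in the depleted libraries, and Ptgs1 has its lowest group mean, 149 CPM, in control CD41- samples.

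As Ptgs1 and Tbxas1 act one after the other, their counts were also set against each other within each library, a description chosen after the values were seen. The Tbxas1 to Ptgs1 count ratio was 1.89, 2.75 and 2.94 in control CD41- samples, 1.52 and 1.33 in control CD41+, 1.34, 1.61 and 1.36 in depleted CD41-, and 0.866, 0.994 and 1.02 in depleted CD41+ samples. All control CD41- libraries lay above the rest and all depleted CD41+ libraries below, while control CD41+ and depleted CD41- overlapped, at means of 1.43 ± 0.14 (n = 2) and 1.44 ± 0.15 (n = 3). The ratio compares libraries, not the levels of these genes, whose exon lengths differ, and it does not depend on depth or normalisation.

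**Figure D4:**
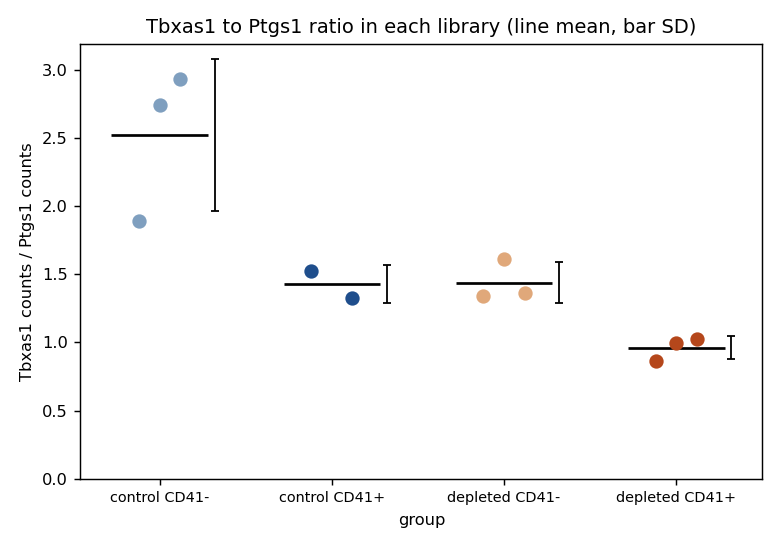
Ratio of Tbxas1 to Ptgs1 counts in each library (points), with the group mean (line) and SD (bar). The means are 2.52 in control CD41-, 1.43 in control CD41+, 1.44 in depleted CD41- and 0.962 in depleted CD41+ samples.

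Hpgds (ENSMUSG00000029919, chromosome 6, 65117293 to 65144908 on GRCm38, minus strand) is the hematopoietic prostaglandin D synthase. It was at 2.48, 3.40 and 10.9 CPM in control CD41-, 4.54 and 2.06 in control CD41+, 4.18, 3.14 and 2.13 in depleted CD41-, and 1.11, 3.72 and 4.95 in depleted CD41+ samples. Its highest library, control CD41- 3, was also the one highest in mast cell and basophil transcripts, cells known to express Hpgds, with a sum of 555 CPM. Its lowest value, in depleted CD41+ 1, was 1 read, under the 3.34 CPM that 3 reads make in this shallow library. Whether Hpgds was lowest there is therefore not settled. That library had a sum of 187 CPM. Pearson's r between the log2 levels of Hpgds and of this sum was 0.347 over the 11 libraries. The part of such cells in the Hpgds level was not tested. The groups overlapped in every comparison, and the averaged differences were -0.30 ± 0.52 for CD41 and -0.35 ± 0.52 for depletion.

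Among the receptors, Tbxa2r (ENSMUSG00000034881, chromosome 10, 81328731 to 81335172 on GRCm38, plus strand) reads thromboxane A2. It was at 9.63, 22.0 and 36.5 CPM in control CD41- and 66.0 and 44.1 in control CD41+ samples. In depleted mice it was at 20.0, 32.9 and 12.5 CPM in CD41- and 47.8, 42.1 and 20.4 in CD41+ samples. The fractions were apart in control mice and overlapped in depleted mice, through depleted CD41+ 3. The averaged difference was 1.00 ± 0.35 (log2, 95% interval 0.26 to 1.74), with an adjusted p of 0.107 in edgeR. It passed in DESeq2 (adjusted p = 0.0414), with the block of consecutive sample numbers (0.0145) and without the filter (0.0015). It did not pass in the remaining alternatives, where the adjusted p reached 0.152 with all libraries or without both basophil-rich ones. The fits without 1 library each did not pass either, at log2 differences from 0.82 to 1.26.

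Ptger4 (ENSMUSG00000039942, chromosome 15, 5206661 to 5244187 on GRCm38, minus strand) was at 56.1, 72.2 and 32.1 CPM in control CD41-, 46.2 and 40.5 in control CD41+, 57.4, 51.1 and 50.1 in depleted CD41-, and 35.6, 34.9 and 36.1 in depleted CD41+ samples. In depleted mice the CD41+ libraries lay below the CD41- ones, and in control mice they fell within their range. The averaged difference of -0.44 ± 0.20 (-0.86 to -0.02) had an adjusted p of 0.202, and that for depletion was -0.15 ± 0.20. The exons of Ptger4 overlap the pseudogene Gm15937 by 1015 bases and Ttc33 by 82 bases, and Gm15937 had 17 reads in all.

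Over the 9 tested members, 1 was higher and none lower in CD41+ cells averaged over treatments, where 5.38% of all tested genes passed the test and 2.73% were higher. Unadjusted p was under 0.05 for 5 of the 9 members (Ptgs1, Alox5, Tbxa2r, Alox12 and Ptger4) against 23.1% of all genes, and no member had fractions apart in both treatments, against 8.08%. The median log2 difference was 0.20 for the members and -0.03 for all genes. In control mice none of the 9 passed (2.62% of all genes did), 3 had unadjusted p under 0.05 (18.9%) and 5 had fractions that did not overlap (34.9%), namely Alox5, Alox12, Ptgs1, Tbxa2r and, by a narrow margin, Ltc4s. In depleted mice none passed (0.193%), 1 had unadjusted p under 0.05 (9.18%) and 1, Ptger4, had fractions that did not overlap (17.7%).

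For depletion averaged over fractions, 1 member was lower and none higher, where 6.33% of all tested genes passed and 2.73% were lower. The same gene, Tbxas1, was the 1 member with unadjusted p under 0.05 (21.3% of all genes) and the 1 with groups apart in both fractions (9.18%). The median log2 difference was -0.15 for the members and -0.01 for all genes. In CD41- cells none passed (3.19%), 1 had unadjusted p under 0.05 (16.9%) and 1 did not overlap (25%), and in CD41+ cells none passed (0.104%), 1 had unadjusted p under 0.05 (12.2%) and 2, Tbxas1 and Ptger4, did not overlap (27%). The response to depletion differed between fractions for none of the 9 in edgeR (0% of all genes), nor at an unadjusted p under 0.05 (6.13%). DESeq2, which called more genes in every comparison, called 3 members for CD41 averaged over treatments (10.7% of all genes) and 1 in control mice (7.4%). It called Tbxas1 for depletion in CD41- cells (adjusted p = 0.0141, 7.5% of all genes) and in CD41+ cells (adjusted p = 0.0207, 2.34%).

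**Figure D5:**
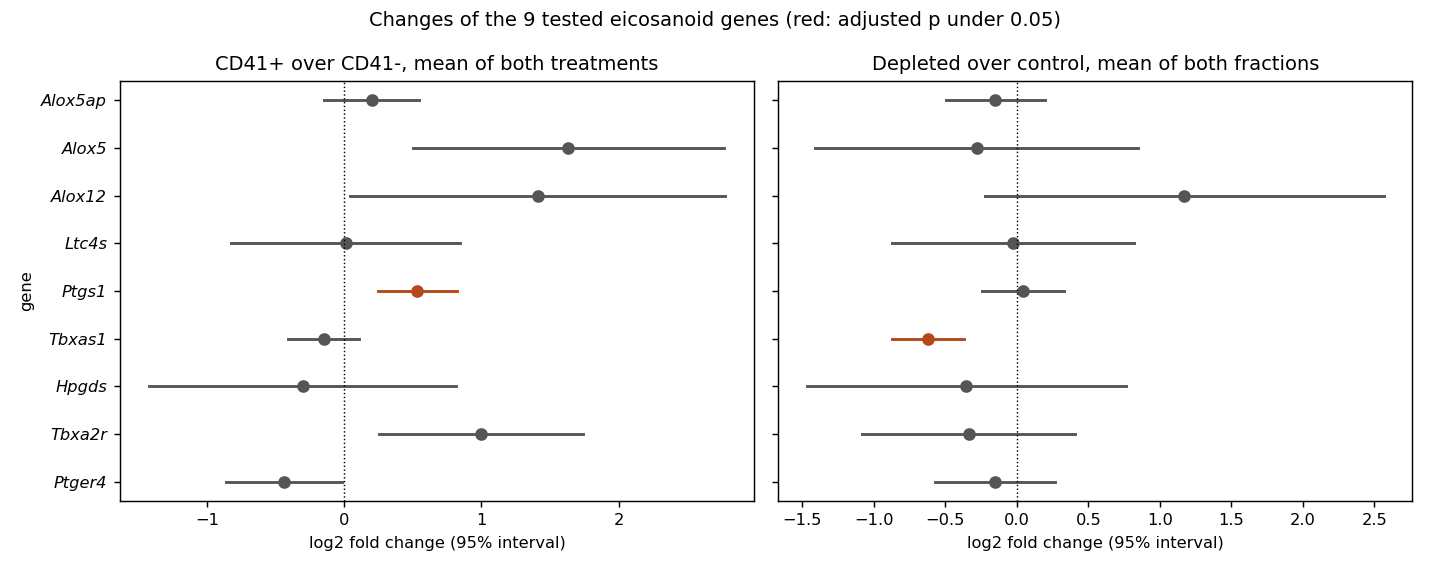
Log2 fold changes with 95% intervals of the 9 tested members, for CD41+ over CD41- averaged over treatments (left) and depleted over control averaged over fractions (right), with those of adjusted p under 0.05 in red. Ptgs1 at 0.53 on the left and Tbxas1 at -0.62 on the right are the 2 in red.

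Further genes of the pathway were taken from a list of 44, of which 30 passed the filter on low counts. Averaged over treatments, 1 of the 30 was higher in CD41+ cells and none lower, against 5.38% of all tested genes called and 2.73% higher, a share near the background. The median log2 difference was 0.28 for the list and -0.03 for all genes. The gene was Ptger2, which encodes EP2, another prostaglandin E2 receptor: it was at 0.275, 0.262 and 0 CPM in control CD41-, 6.41 and 4.13 in control CD41+, 3.16, 0 and 1.18 in depleted CD41-, and 4.45, 6.08 and 5.83 in depleted CD41+ samples. CD41+ libraries lay above CD41- ones in both treatments, on 133 reads in all. Control CD41- libraries held 1, 1 and 0 reads, so the size of the fitted difference rests on counts near 0. Of the CD41- libraries only depleted CD41- 1, with 31 reads, exceeded the minimum count of 10 in the filter. Ptger2 thus entered the test through the CD41+ libraries, where it was high, and its call is given as a description. The fitted difference was 3.27 ± 0.79 (log2, adjusted p = 0.0282), and it lost the call in 5 of the 11 fits without 1 library (control CD41+ 1 or 2, control CD41- 3, depleted CD41- 3 or depleted CD41+ 3; highest adjusted p = 0.0784), in limma-voom (0.07) and with the neutrophil covariate (0.0604).

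After depletion averaged over fractions 2 of the 30 were lower and none higher, where 6.33% of all tested genes were called and 2.73% were lower. The median log2 difference was 0.00 over the list and -0.01 over all genes. Ggt5, a gamma-glutamyl transferase that turns leukotriene C4 into D4, was at 20.4, 24.3 and 16.3 CPM in control CD41-, 22.4 and 35.3 in control CD41+, 12.6, 10.1 and 9.70 in depleted CD41-, and 15.6, 6.47 and 8.16 in depleted CD41+ samples. Every control library lay above every depleted one. It fell by 1.27 ± 0.27 on the log2 scale (adjusted p = 0.015), a call lost without control CD41+ 2 (adjusted p = 0.0751).

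Pla2g15, a lysosomal phospholipase A2, was at 52.8, 59.9 and 46.9 CPM in control CD41-, 77.0 and 82.6 in control CD41+, 54.7, 43.6 and 53.0 in depleted CD41-, and 33.4, 39.4 and 26.8 in depleted CD41+ samples. Depleted CD41+ libraries lay far below control CD41+ ones, and the CD41- groups overlapped. The averaged fall was 0.67 ± 0.16 on the log2 scale (-0.67; adjusted p = 0.0233), and the call was lost in 6 of the 11 fits without 1 library (control CD41+ 1 or 2, any depleted CD41- library, or depleted CD41+ 3; highest adjusted p = 0.0841) and without both libraries richest in basophil transcripts (0.0636).

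None of the 30 passed within single groups or for the difference in response, and an unadjusted p was under 0.05 for 5 in control mice and 3 in depleted mice for CD41 (18.9% and 9.18% of all genes), 6 in CD41- and 4 in CD41+ cells for depletion (16.9% and 12.2%), and 2 for the difference (6.13%). Those nearest were Ptger2 (adjusted p = 0.0639) and Lta4h (0.071), the leukotriene A4 hydrolase that makes leukotriene B4, for CD41 in control mice, and Ephx2 (0.343) and Pla2g15 (0.368) for CD41 in depleted mice. Lta4h (0.0972) and Ggt5 (0.209) came nearest for depletion in CD41- cells, Pla2g15 (0.0726) and Ggt5 (0.156) in CD41+ cells, and Pla2g15 (0.43) and Lta4h (0.757) for the difference in response. Lta4h was at 258, 302 and 254 CPM in control CD41- samples, below all other libraries, which ran from 356 to 794 CPM. Ephx2, a soluble epoxide hydrolase, reached 33.4 CPM in the shallow library depleted CD41+ 1 and stayed at 0.730 to 4.19 CPM in the other libraries.

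For the 3 members with the highest mean CPM, the genes with the most similar pattern over the 11 libraries were listed by Pearson's r of log2 CPM among 11673 genes, as a description. Alox5ap was most like Gm19719 (0.96), the antisense gene that shares exon bases with it, then Atp6v1e1 (0.943) and Vpreb1 (0.938). Ptgs1 was most like Fli1 (0.956), then Eif4h (0.938) and Selenoi (0.936). Tbxas1 was most like Def8 (0.984), Abhd4 (0.964) and Saraf (0.957). All 3 of these were lower after depletion averaged over fractions, by log2 values of -0.85 for Def8 (adjusted p = 0.00459), -0.59 for Abhd4 (0.0248) and -0.69 for Saraf (0.00217). The 11 libraries share the same groups, so that genes changed by depletion resemble each other on this measure.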

How the data were processed

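RNA of sorted HSC pools was sequenced as 11 libraries, and the authors deposited 1 table of raw read counts per Ensembl gene. Per the submitters' processing notes, the tools were cutadapt, STAR and HTSeq 0.6.1p1, and the builds listed are GRCm38 and mm10; no source used here gives the strand setting or the annotation release. Symbols and exon lengths came from GENCODE M21, which named 49326 of 49585 identifiers. Deposited counts were tested in edgeR 4.0.16 (R 4.3.3) by the robust quasi-likelihood test with TMM, 1 coefficient per group and all 11 libraries in the fit, after filterByExpr (minimum count 10, total 15), which kept 13448 genes with 99.7% of counts. P-values were adjusted by Benjamini-Hochberg over these genes, at a threshold of 0.05, and averaged contrasts weight both groups equally. log2 CPM used a prior count of 2.

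Groups came from the sample titles. Each library holds cells of 3 mice, and p-values measure the spread between libraries. Whether CD41- and CD41+ libraries came from the same mice is not stated. A block of consecutive title numbers was tried as an alternative for the CD41 comparisons and the difference in response, not for depletion. Replicate numbers here only name samples. Depth, 974196 to 9950423 counts, sets the level of 3 reads at 0.306 to 3.34 CPM per library, counting error only, since reads carried no molecular identifiers.

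Alternatives were RLE scaling, library size alone, no filter, DESeq2 1.42.0, limma 3.58.1 (voom with sample weights), a fit without robust estimation, the block, only the groups compared, and each library left out. Leaving out both libraries richest in basophil transcripts and the neutrophil covariate were chosen after seeing the data. The members and lists were chosen with earlier results of these data known. Text names all 10 members, genes of the wider list that passed a test or came nearest, and the 3 genes most like each of the 3 members highest in CPM, the genes compared having a mean of at least 5 CPM in some group. Code was tested on simulated data. Promoter letters are from RefSeq, the TATA box being added to the motifs after the sequences were seen. Figures used Python 3.11.15 and matplotlib 3.10.9.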

Additional observations from a re-analysis of the deposited data

Results flagged for a closer look

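Pla2g15 differed between CD41+ and CD41- cells in opposite directions in control and depleted mice, with no overlap of libraries in either. It was at 53.2 ± 6.51 CPM in control CD41- (SD, n = 3) and 79.8 ± 3.97 in control CD41+ samples (n = 2), against 50.4 ± 6.00 in depleted CD41- and 33.2 ± 6.30 in depleted CD41+ samples (n = 3 each). The response to depletion was lower in CD41+ than in CD41- cells by a log2 difference of -1.18 ± 0.31, with an adjusted p of 0.43 over all 13448 genes in edgeR, so the difference did not pass the threshold.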

How the results depend on the processing

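Members that passed for CD41 averaged over treatments numbered 1 in the reported fit, 0 with library size alone, without both basophil-rich libraries or with the neutrophil covariate, and 3 (Ptgs1, Alox5 and Tbxa2r) with DESeq2, without the filter or with the replicate block, which called 10.7%, 6.67% and 7.83% of all genes; without 1 library each, 0 to 1. For CD41 in control mice 0 became 3 without the filter, which called 4.55% of all genes. It became 1 with DESeq2 (7.4% of all genes), the replicate block (2.93%) or only the 2 groups compared (0 to 1 without 1 library each). In depleted mice 0 became 1 without the filter (1.54%). For depletion averaged over fractions 1 became 0 without both basophil-rich libraries (1 to 1 without 1 library each). For depletion in CD41- cells 0 became 1 with DESeq2 (7.5% of all genes), voom or the neutrophil covariate, and in CD41+ cells 1 with DESeq2 (2.34%). No share of all genes is given here for voom, the covariate, the fit of only the 2 groups or the fits without 1 library. Member counts under these settings cannot be set against a background. The replicate block was fitted only for the CD41 comparisons and the difference in response, and it changed no other member call there. Depletion could not be tested with it, since every block lies within a single treatment. The labels do not say that the numbers pair samples. The cause of these changes was not tested. Levels under library size alone were 230 CPM for Ptgs1 and 3.37 for Ltc4s in control CD41+, 377 for Tbxas1 in control CD41- and 34.8 for Ptger4 in depleted CD41+ samples.

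Small log2 differences that did not pass changed sign. For CD41 averaged, Alox5ap was at -0.087 with the neutrophil covariate; Ltc4s at -0.081 with library size alone, -0.0011 with the block, -0.032 without both basophil-rich libraries, -0.021 with the covariate and -0.18 to 0.10 without 1 library each; Hpgds at 0.13 with the block, 0.29 without both basophil-rich libraries and -0.62 to 0.16 without 1 library each. For depletion averaged, ranges without 1 library each were -0.68 to 0.25 for Alox5 (0.25 without control CD41+ 2), -0.27 to 0.015 for Alox5ap, -0.0053 to 0.14 for Ptgs1, -0.22 to 0.064 for Ltc4s and -0.58 to 0.11 for Hpgds. Ptgs1 was at -0.0077 with voom and -0.0033 without both basophil-rich libraries, Ltc4s at 0.062 without these and Hpgds at 0.018 with voom. Ptgs1 after depletion in CD41+ cells ranged from -0.21 to 0.013. All-gene counts ranged from 256 to 1674 around 724 for CD41 averaged, from 61 to 1142 around 352 in control and from 9 to 387 around 26 in depleted mice. For depletion they ranged from 252 to 1407 around 851 averaged, 64 to 862 around 429 in CD41- and 0 to 317 around 14 in CD41+ cells, and for the difference in response from 0 to 178 around 0. With 0 to 45 reads per library, Alox12, Ltc4s and Hpgds are limited by depth.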
